A study of Mus musculus with 29 samples.

Results

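Whole-blood RNA of irradiated mice was compared with that of sham-irradiated mice in 26 of the 29 deposited libraries, 17 irradiated and 9 sham. The 26 were chosen by how many expressed genes a library lists at 0: of the 11519 genes whose mean over all 29 libraries reached 50, 3 libraries listed more than 500 at 0 and were left out. These were sham replicate 1 with 828 such genes, irradiated replicate 2 with 754 and irradiated replicate 14 with 506. The kept libraries listed between 13 and 220 at 0, the highest being irradiated replicate 5 with 220, sham replicate 9 with 195 and irradiated replicate 3 with 194. These zeros chose the libraries and are given as a description.

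All mice were males labelled LJ, and blood was taken on day 120 by cheek bleed or from the tail vein into an RNA-stabilising solution. The irradiated mice had received 11.35 Gy as upper body irradiation, and the sham mice the sham procedure. The labels mark the kept irradiated mice by outcome, 10 as Live and 7 as Die, and the series is titled as a search for predictors of death from lung disease. Both left-out irradiated libraries carried the label Die, so the Die group kept 7 of 9 libraries and the Live group all 10. Ages were not given in the labels. The labels number each library as a replicate mouse but do not say more about separate litters or days, so p-values measure the spread between these samples.

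Blood monocytes circulate in a classical form, which carries the chemokine receptor Ccr2 and the surface protein Ly6c, and a non-classical form, which patrols vessel walls and carries the fractalkine receptor Cx3cr1. Both carry the growth factor receptor Csf1r and rely on transcription factors such as Klf4, and both take up particles and digest them in lysosomes. In whole blood they are mixed with neutrophils, lymphocytes, platelets and red cells, so fewer cells of a type and less RNA per cell cannot be told apart.

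The deposited values are normalised signals per gene symbol, not read counts. In units of 1000000 they summed to between 19.6 and 55.7 in the kept libraries, which had between 15555 and 24275 genes above 0. The left-out libraries summed to between 21.6 and 28.9 such units, inside the kept range, and had between 14975 and 18498 genes above 0. The 7S RNA genes, which encode the small RNA of the signal recognition particle, took between 14.7 and 26.3% of the values in the kept sham libraries and between 5.78 and 40.1% in the kept irradiated ones. In the left-out libraries they took between 2.73 and 4.97%, below every kept library.

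**Figure D1:**
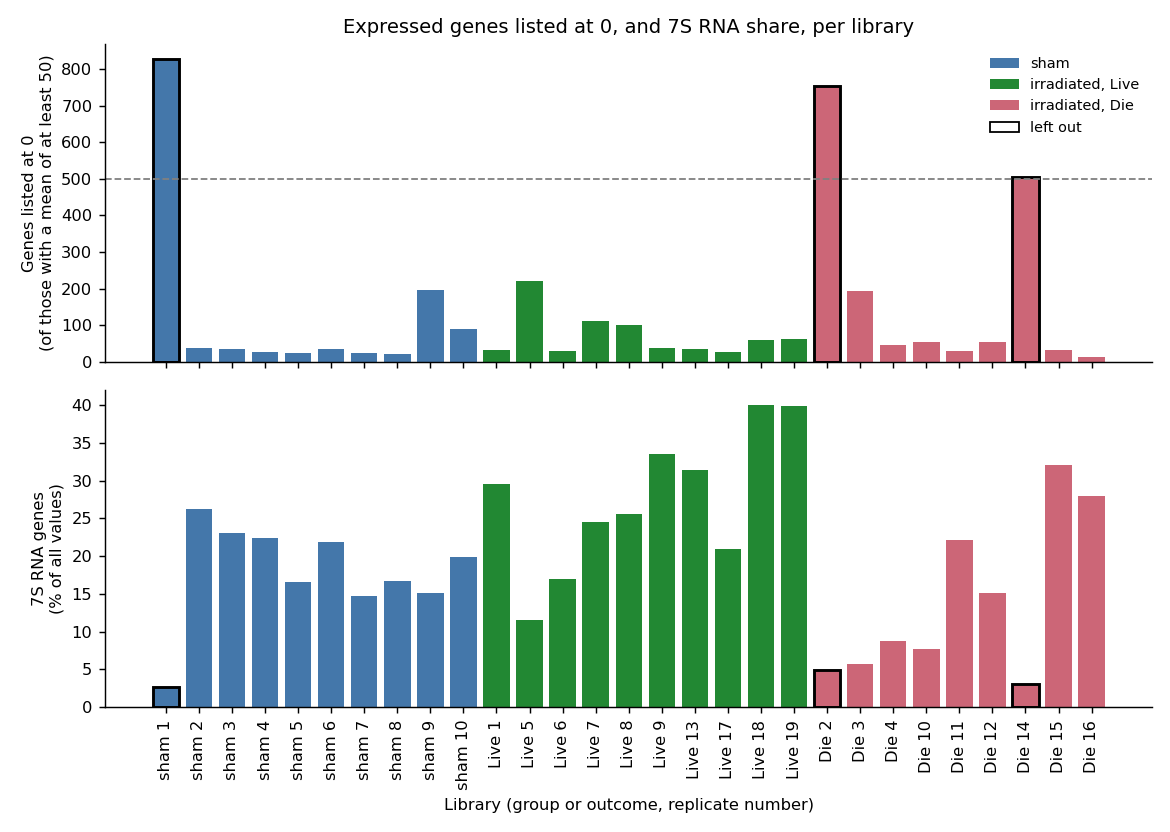
Upper panel, number of genes listed at 0 in each of the 29 libraries, among the 11519 genes whose mean reached 50. The dashed line is the limit of 500, and bars outlined in black are the 3 libraries left out, at 828, 754 and 506. Lower panel, percent of all values taken by the 7S RNA genes, where the same 3 libraries lie between 2.73 and 4.97%.

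Most of the genes that differed were lower after irradiation, among them receptors, transcription factors and lysosomal genes of monocytes and other phagocytes. Cx3cr1, Psap, Nrp1 and Mpeg1 led by p-value, each more than 2-fold lower in the irradiated group. Of 24310 genes tested with limma, 92 passed an adjusted p of 0.05 (Benjamini-Hochberg), 0.378% of those tested. Of these, 78 were lower after irradiation (0.321%) and 14 higher (0.0576%). The median log2 change over all genes tested was -0.00088. An unadjusted p under 0.05 was met by 2542 genes. With all 29 libraries the same fit called 3 genes, 0.0123% of those tested, all lower and all among the 92: Cx3cr1, Mpeg1 and Cd177. The share of zeros among expressed genes differed between kept libraries too. With the number of zeros as a covariate the fit called 65 lower and 13 higher genes, 70 of them among the 92. The same number chose the libraries, so the part of zeros in the calls was not tested by this fit.

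The 78 decreases had a median log2 change of -0.86, and 28 of them were at least 2-fold. In 58 of the 78 genes all 17 irradiated libraries lay below the sham median, and in the others 16 did. The 78 were called for this same difference, so these counts are a description, and the share over all genes tested was not counted. The groups overlapped in nearly every one: Irf2bp2, a transcriptional co-regulator that binds Irf2, was the only gene tested in which every irradiated value lay below every sham value (0.00411% of genes tested). Its 9 sham values ran from 1342 over a median of 1431 to 1993, and its 17 irradiated values from 641 over 1145 to 1288. Its log2 change was -0.53 ± 0.105 (SE), with an adjusted p of 0.0257 by limma. Left-out sham replicate 1 had a value of 1089 for this gene, inside the kept irradiated range.

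The promoters of the leading genes, the 4 of smallest p, are shown as a description. They were searched for letters of PU.1 and C/EBP sites, transcription factors that act in myeloid cells. Whether these factors have a part in the decreases was not tested. Each line gives the 250 bases before the gene's start, 5′ to 3′ along the gene, from RefSeq on GRCm38.p6, with the letters GAGGAA (a PU.1 core, an ETS-family site) in capitals on either strand. The windows are chr9:120068297-120068546 on the minus strand for Cx3cr1, chr10:60277378-60277627 on the plus strand for Psap, chr8:128358823-128359072 on the plus strand for Nrp1 and chr19:12460520-12460769 on the plus strand for Mpeg1. RefSeq starts can differ from the GENCODE gene ends given with the values, and of the 2 windows listed for Psap the first is shown.
Cx3cr1: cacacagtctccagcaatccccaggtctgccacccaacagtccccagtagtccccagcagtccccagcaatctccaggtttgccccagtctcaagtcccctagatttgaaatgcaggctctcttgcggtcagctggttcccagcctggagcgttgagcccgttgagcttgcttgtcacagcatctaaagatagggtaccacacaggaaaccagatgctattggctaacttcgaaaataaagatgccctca
Psap: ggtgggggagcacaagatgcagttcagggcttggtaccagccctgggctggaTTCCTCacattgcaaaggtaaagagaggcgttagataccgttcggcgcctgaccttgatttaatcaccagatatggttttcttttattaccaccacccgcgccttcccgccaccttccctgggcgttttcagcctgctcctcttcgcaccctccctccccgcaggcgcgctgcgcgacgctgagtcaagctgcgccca
Nrp1: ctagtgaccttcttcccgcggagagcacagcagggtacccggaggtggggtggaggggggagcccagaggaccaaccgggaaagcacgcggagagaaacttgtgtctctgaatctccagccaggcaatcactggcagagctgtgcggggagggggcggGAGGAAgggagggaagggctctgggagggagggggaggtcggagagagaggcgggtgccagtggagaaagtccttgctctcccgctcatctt
Mpeg1: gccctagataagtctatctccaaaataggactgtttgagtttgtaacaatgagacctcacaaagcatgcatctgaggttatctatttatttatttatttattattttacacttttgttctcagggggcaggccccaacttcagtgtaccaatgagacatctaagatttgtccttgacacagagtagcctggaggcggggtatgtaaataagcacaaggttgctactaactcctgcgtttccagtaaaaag

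The letters GAGGAA were found once for Psap, on the minus strand (TTCCTC as printed), and once for Nrp1, on the plus strand. The search covered the whole 300-base window of the promoter table, 250 bases before to 50 after the start, on both strands. In that window 28.3% of 27025 promoters held GAGGAA, as did 27.3% of the promoters of tested genes and 21 of the 66 decreased genes in the promoter table (31.8%). The letters TTGCNNAA, the form of a C/EBP-family site, were in none of these 4 windows, in 10.8% of all promoters and in 7 of the 66 (10.6%). These counts describe letters in a window and nothing about binding.

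Cx3cr1, the fractalkine receptor of patrolling monocytes (chr9:119901616-120069879, minus strand), ran from 692 over a median of 1095 to 1810 in the sham libraries and from 193 over 398 to 728 in the irradiated ones. 16 of the 17 irradiated libraries lay below every sham library. The log2 change was -1.53 ± 0.197 (SE), with an adjusted p of 0.000747 by limma. Its promoter, printed above, held neither motif.

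Csf1r is the receptor for macrophage colony-stimulating factor carried by monocytes. It ran from 2375 over 3475 to 5063 in sham and from 694 over 1363 to 2620 in irradiated libraries. Again 16 of 17 irradiated values lay under the lowest sham value. The log2 change was -1.23 ± 0.208 (SE), adjusted p 0.00877 by limma. Nrp1, a co-receptor for semaphorins and vascular endothelial growth factor (chr8:128358604-128503363, plus strand), ran from 329 over 577 to 845 in sham and from 155 over 248 to 429 in irradiated libraries, with 16 of 17 below every sham value. Its log2 change was -1.21 ± 0.168 (SE), adjusted p 0.000977.

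Adgre4, an adhesion-type receptor of non-classical monocytes, fell by 0.83 on the log2 scale (SE 0.176, adjusted p 0.0351 by limma). These receptors belong to a non-classical monocyte list of 14 genes, of which 3 passed the test, all lower: Cx3cr1, Csf1r and Adgre4. The median change of the list was -0.52, and 12 members were below 0. Ear2, a ribonuclease of the eosinophil family found in these monocytes, had a log2 change of -0.87 (SE 0.257) and an adjusted p of 0.149. The summed signal of the list ran from 17890 to 33920 in sham and from 9607 to 39670 in irradiated libraries, so the sums overlapped. For comparison with this and later lists, 0.321% of all genes tested were called lower, and their median change was -0.00088 over all genes tested. The share of all genes tested with a change below 0 was not counted. Members of a list may move together, so such counts are a description.

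Ccr2, a chemokine receptor needed for the exit of classical monocytes from bone marrow, ran from 7679 over 14650 to 22820 in sham and from 2379 over 7273 to 13790 in irradiated libraries. All 17 irradiated values were below the sham median and 10 were below every sham value. This was a log2 change of -1.15 ± 0.247 (SE), adjusted p 0.0359. F13a1, the catalytic subunit of coagulation factor XIII, made by classical monocytes and megakaryocytes, fell by 0.73 on the log2 scale (SE 0.127, adjusted p 0.0132).

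These were the 2 of 15 classical monocyte genes that passed the test, and all 15 changes were below 0, with a median of -0.85. Ly6c2, which encodes the surface protein that defines these cells, just missed the threshold, at -1.02 on the log2 scale with an SE of 0.235 and an adjusted p of 0.0509. Clec4a1, a C-type lectin receptor, was close to it as well, at -0.85, with an SE of 0.198 and an adjusted p of 0.0521. The summed signal of the list ran from 146200 to 304800 in sham and from 73550 to 182900 in irradiated libraries.

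Klf4, a transcription factor which mouse blood monocytes need for their formation, ran from 369 over 482 to 856 in sham and from 150 over 294 to 483 in irradiated libraries. All but 2 of the irradiated values were below every sham value. Its fitted log2 change was -0.86 ± 0.168 (SE), adjusted p 0.0251. Of 16 myeloid transcription factors 2 passed the test, both lower, with a list median of -0.40. Cebpa, which directs early myeloid differentiation, was at -1.05 with an SE of 0.267 and an adjusted p of 0.0793, and Irf5, which acts downstream of Toll-like receptors, at -0.68 with an SE of 0.177 and an adjusted p of 0.0868.

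Besides Csf1r, 2 more of 14 growth factor receptor and signalling genes passed the test. Csf2ra, the alpha chain of the receptor for granulocyte-macrophage colony-stimulating factor, fell by 0.70 on the log2 scale (SE 0.149, adjusted p 0.0351). Flt3, the receptor for Flt3 ligand on progenitors and dendritic cells, fell by 1.13 (SE 0.242, adjusted p 0.0351). All 14 members were below 0, with a median of -0.43, against -0.00088 over all genes tested.

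Of 27 lysosomal genes 5 passed the test, all lower (18.5%), and all 27 log2 changes were below 0, with a median of -0.48. The background over all genes was 0.378% in either direction. Of the 92 called genes 91 had a mean of at least 50, as did 11519 of the 24310 genes tested, so low genes reduce this background. Psap, the precursor of the saposins that help lysosomal enzymes degrade sphingolipids (chr10:60277627-60302597, plus strand), ran from 13070 over 17220 to 28510 in sham and from 5253 over 8473 to 14910 in irradiated libraries. All but 1 of the irradiated values lay below every sham value. The log2 change was -1.17 ± 0.162 (SE), adjusted p 0.000977 by limma.

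Mpeg1, which encodes perforin-2, a pore-forming protein that acts on bacteria inside phagocytes (chr19:12460779-12465283, plus strand), ran from 6499 over 9539 to 14300 in sham and from 1992 over 4418 to 7583 in irradiated libraries. Here too 1 irradiated library reached into the sham range. The log2 change was -1.19 ± 0.180 (SE), adjusted p 0.00334. Cd68, a lysosomal membrane glycoprotein of macrophages, fell by 1.03 (SE 0.223, adjusted p 0.0369), and Grn, the precursor of the lysosomal granulins, by 1.05 (SE 0.233, adjusted p 0.0432). Ctss, a cysteine protease that trims the invariant chain of MHC class II, fell by 0.62 (SE 0.142, adjusted p 0.0467). The summed signal of the 27 genes ran from 145500 to 255400 in sham and from 95680 to 161000 in irradiated libraries.

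The other genes of phagocyte defence had 1 called member a list or none. Cybb, the electron-carrying subunit of the phagocyte oxidase, ran from 3849 over 6834 to 8837 in sham and from 2021 over 3483 to 6856 in irradiated libraries. The highest irradiated value, in replicate 3, lay above the sham median and the other 16 below it. On the log2 scale the change was -0.97 ± 0.175 (SE), adjusted p 0.0141. The 6 other oxidase genes did not pass, among them Ncf4 and Ncf1, cytosolic subunits with log2 changes of -0.50 and -0.44 and adjusted p-values of 0.160 and 0.180.

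Tlr2, the receptor for bacterial lipoproteins, fell by 0.88 (SE 0.187, adjusted p 0.0351) and was the only called gene of 22 Toll-like receptors and adaptors, whose median was -0.36. Naip2, a cytosolic sensor of bacterial secretion systems, fell by 0.72 (SE 0.131, adjusted p 0.0154) and was the only one of 16 inflammasome and cytokine genes, whose median was -0.21. None of 18 Fc receptor and complement genes passed, though 15 were below 0 with a median of -0.44. Among them the integrin Itgam, a complement receptor chain, had a change of -0.90 (SE 0.241, adjusted p 0.0982).

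Hspa5, the main chaperone of the endoplasmic reticulum, fell by 0.70 (SE 0.137, adjusted p 0.0251), 1 of 21 genes of the unfolded protein response, whose median was -0.32. Of 16 dendritic cell genes, Flt3 and Sirpa, an inhibitory receptor that binds Cd47, fell, Sirpa by 0.79 (SE 0.167, adjusted p 0.0351). Cd177, a surface protein of neutrophils, ran from 536 over 1191 to 1649 in sham and from 152 over 442 to 908 in irradiated libraries. Its log2 change was -1.40 ± 0.269 (SE), adjusted p 0.0234. It was the only called gene of 22 mature neutrophil genes, and the median of that list was -0.12.

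Altogether 21 of the 490 tested genes in the 29 lists passed the test (4.29%), 20 lower and 1 higher. The lists were chosen with earlier results of these data known, so this share and those of single lists are a description. The other 71 called genes were in no list. Among them Tnfrsf1b, the second receptor for tumour necrosis factor, fell by 0.93 (SE 0.157, adjusted p 0.00877), Nfil3, a basic leucine zipper transcription factor, by 0.89 (SE 0.151, adjusted p 0.00877), and Dusp6, a phosphatase of the kinase Erk, by 0.76 (SE 0.122, adjusted p 0.00693). The 9 kept sham values of Nfil3 were close together, from 361 over 370 to 432. The kept irradiated values ran from 134 over 186 to 368, with 16 of 17 below every kept sham value. Left-out sham replicate 1 was at 124, below all of these values. Prkx, a cyclic AMP-dependent kinase, fell by 0.61 (SE 0.103, adjusted p 0.00877), and Emilin2, a glycoprotein of the extracellular matrix, by 1.19 (SE 0.209, adjusted p 0.0132). Map7d1, of a family of microtubule-associated proteins, fell by 0.69 (SE 0.124), and Plod3, a collagen lysyl hydroxylase, by 1.02 (SE 0.186).

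**Figure D2:**
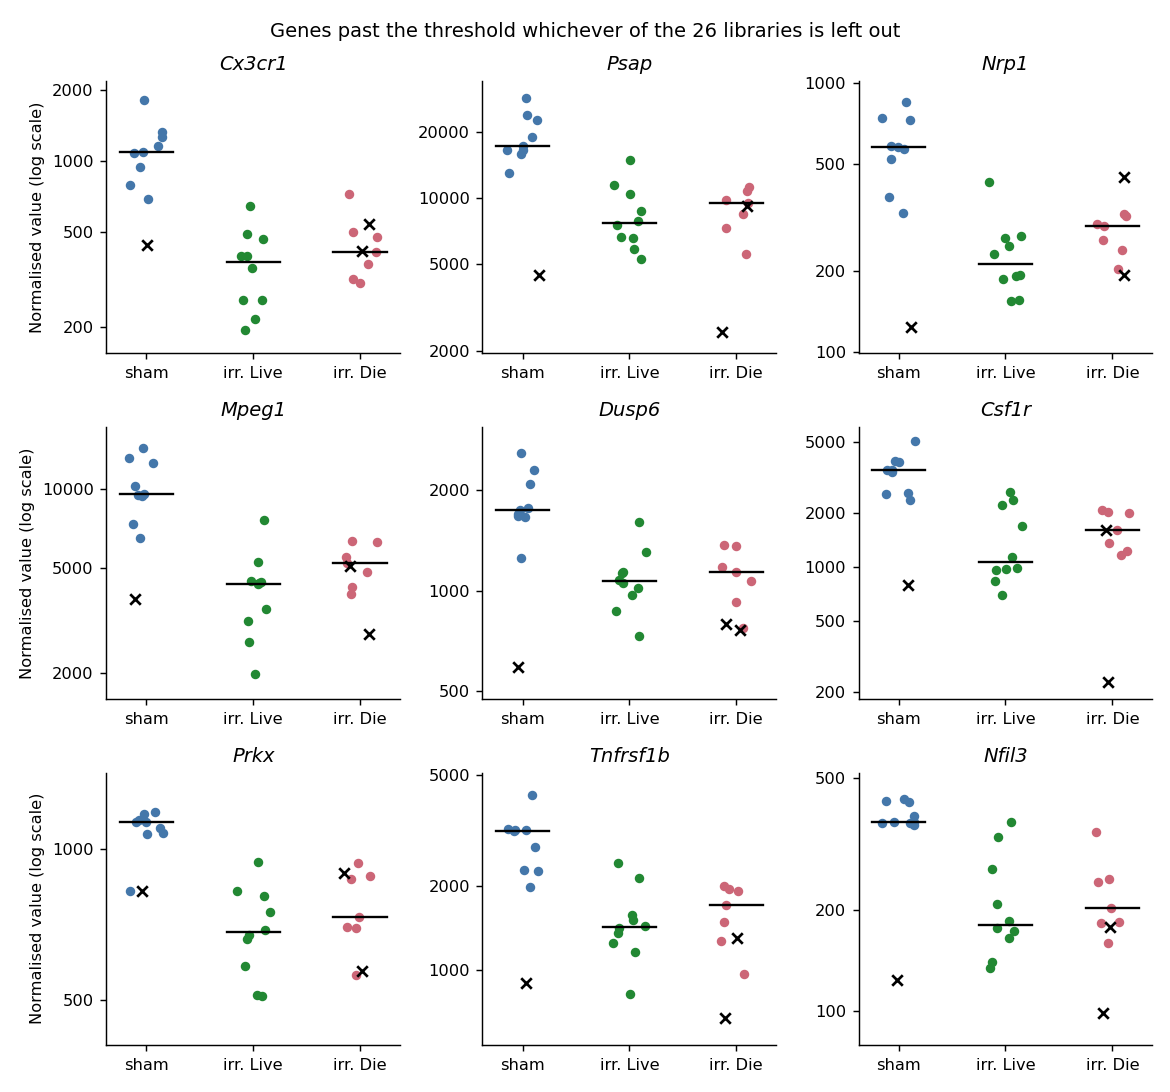
Normalised values per library, on a log scale, of the 9 genes that passed the threshold whichever of the 26 libraries was left out. With all 29 libraries only Cx3cr1 and Mpeg1 of these passed. Points are kept sham, irradiated Live and irradiated Die libraries, the horizontal lines are group medians, and black crosses are the 3 libraries left out. For Cx3cr1 the kept sham libraries lie between 692 and 1810 and the kept irradiated ones between 193 and 728, while left-out sham replicate 1 is at 442.

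Increases were fewer and mostly smaller, with a median log2 change of 0.69 over the 14 genes, of which 3 were at least 2-fold. In 10 of the 14 all 17 irradiated libraries lay above the sham median, and in the others at least 15 did. The 14 were called for this difference, so these counts too are a description. No gene was higher in every irradiated than in every sham library. Tut4, which adds uridines to RNA ends, ran from 1854 over 2072 to 2568 in sham and from 2159 over 2954 to 4572 in irradiated libraries. Its log2 change was 0.52 ± 0.102 (SE), adjusted p 0.0251 by limma. Carmil1, which regulates capping of actin filaments, ran from 44.0 over 92.4 to 136 in sham and from 79.7 over 218 to 798 in irradiated libraries. The groups overlapped at the low end, and the log2 change was 1.41 ± 0.302 (SE), adjusted p 0.0359. It was the only called gene of 25 actin cytoskeleton genes, and the list's median was -0.28.

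Luc7l, a component of splicing complexes, rose by 0.76 on the log2 scale (SE 0.158, adjusted p 0.0351), and Uchl3, a deubiquitinating enzyme, by 0.68 (SE 0.143, adjusted p 0.0351). Cse1l, the exporter of importin alpha, rose by 0.70, Spopl, an adaptor of cullin-3 ligases, by 0.68, and Rnf19a, a ubiquitin ligase, by 0.67. Cenpc1, a centromere protein, and Btla, an inhibitory receptor of lymphocytes, both rose by 0.44, with adjusted p-values of 0.0467 and 0.0490. Of the remaining increases, 4 were gene models with clone-type names. Left-out sham replicate 1 was above every kept irradiated value for Luc7l (4149 against 2621), Uchl3 (834 against 554), Spopl (3272 against 2760) and Cenpc1 (1328 against 1074). For Cse1l, Rnf19a and Btla it was below the highest kept irradiated value.

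The lists of B cells, T cells, cytotoxic and NK cells, platelets and red cells held no called gene. The log2 change had a median of 0.23 over 16 B cell genes, -0.01 over 18 T cell genes, 0.19 over 16 cytotoxic and NK cell genes, 0.04 over 19 platelet genes and -0.04 over 17 erythroid genes. The T cell, platelet and erythroid medians changed sign in other settings, 14, 5 and 9 of them respectively. The summed signal of the B cell genes ran from 29870 to 45330 in sham and from 33620 to 61400 in irradiated libraries, that of the T cell genes from 17670 to 24210 and from 17320 to 26200, and that of the mature neutrophil genes, of which Cd177 was called, from 58110 to 138700 and from 36360 to 138800. The ranges of these sums overlapped between the groups. Whether the lists differ from the monocyte lists was not tested.

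The marker genes Cd79a, Cd3e, Pf4, S100a8 and Hbb-bs did not pass the test. The B cell receptor chain Cd79a stood at -0.12 on the log2 scale (SE 0.218, adjusted p 0.919), the T cell receptor chain Cd3e at 0.24 (SE 0.189, adjusted p 0.738), the platelet factor Pf4 at 0.48 (SE 0.259, adjusted p 0.541), the neutrophil alarmin S100a8 at 0.38 (SE 0.255, adjusted p 0.674) and the beta globin Hbb-bs at 0.32 (SE 0.330, adjusted p 0.822). None of 24 p53 targets or 18 DNA repair genes passed. The p53 target Cdkn1a, a cell cycle inhibitor, ran from 0 to 26.6 in sham and from 0 to 118 in irradiated libraries. Its log2 change was 1.67 (SE 0.863, adjusted p 0.517 by limma), with 4 of the 26 values at 0. Mdm2, the ubiquitin ligase of p53, had a change of 0.11 (SE 0.131, adjusted p 0.874). None of 22 interferon-response genes, 22 cell cycle genes or 32 ribosomal protein genes passed, nor did any of the 13 mitochondrially encoded genes, whose median was 0.50. Of 16 endothelial and lung genes none passed, and the lung epithelial genes Sftpc and Scgb1a1 were listed at 0 in all 26 libraries.

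**Figure D3:**
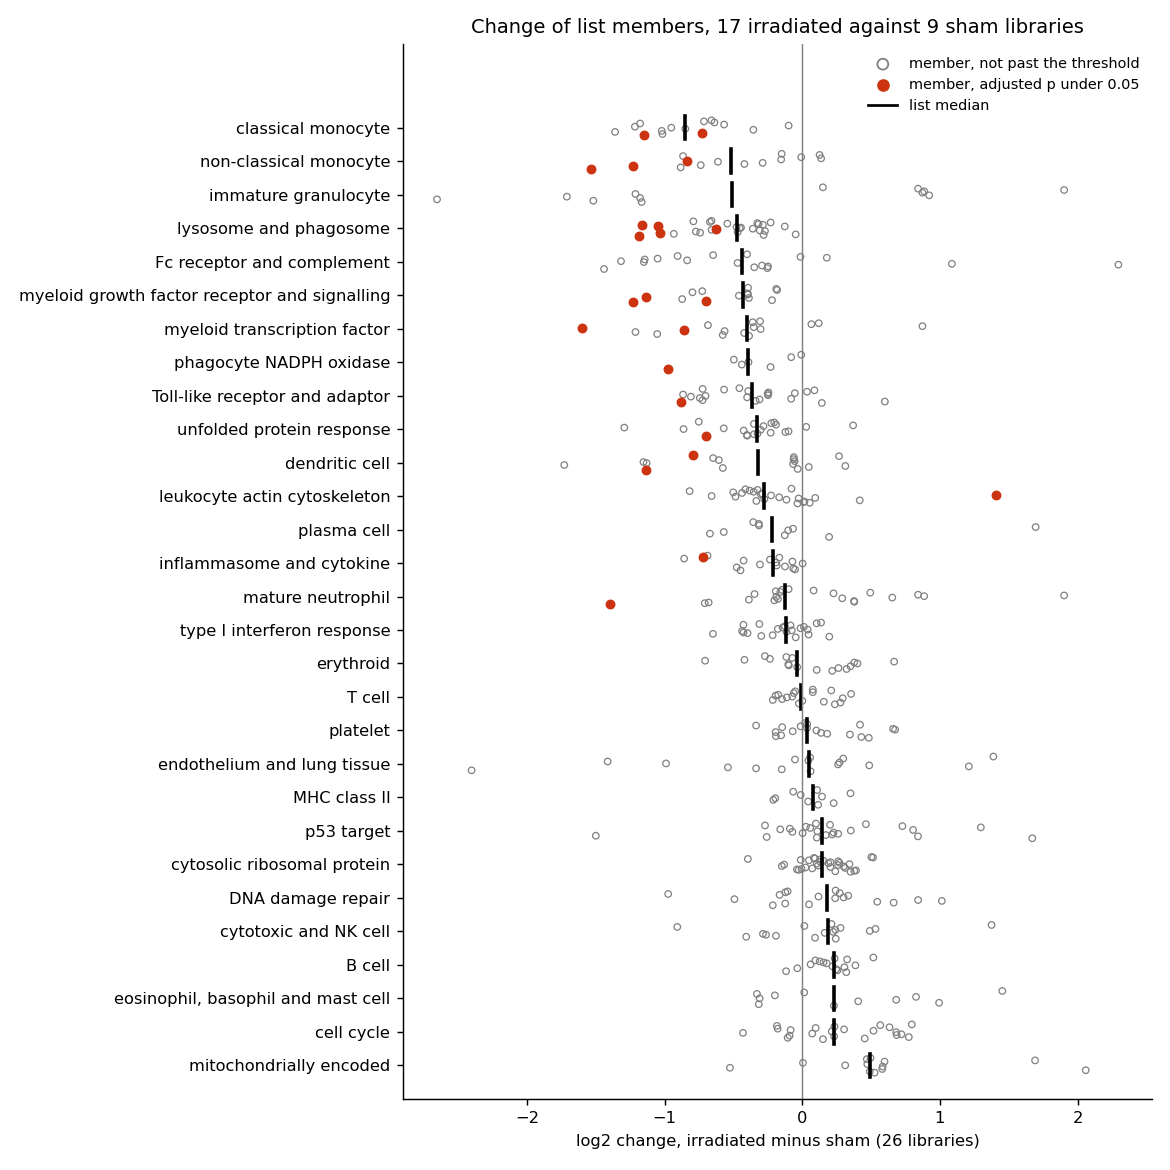
Log2 change, irradiated minus sham over 26 libraries, of every tested member of 29 gene lists ordered by their median (black bar). Filled red points passed an adjusted p of 0.05 and open points did not. The lowest medians belong to the classical monocyte list at -0.85 and the non-classical list at -0.52, the highest to the mitochondrially encoded genes at 0.50.

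Leaving the 3 libraries out changed both the size and the error of the difference. Over the 92 called genes the median size of the log2 change was 0.81 without them and 0.71 with them, and the median SE was 0.165 without them and 0.197 with them. The change was larger in 85 of the 92 and the SE smaller in 84, and all 92 kept their direction with 29 libraries. Over all genes tested the SE was smaller in 63.6%. The 92 genes were called in the fit without these libraries, so these counts are a description. Of the 89 calls lost with 29 libraries, adjusted p-values started at 0.0873.

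**Figure D4:**
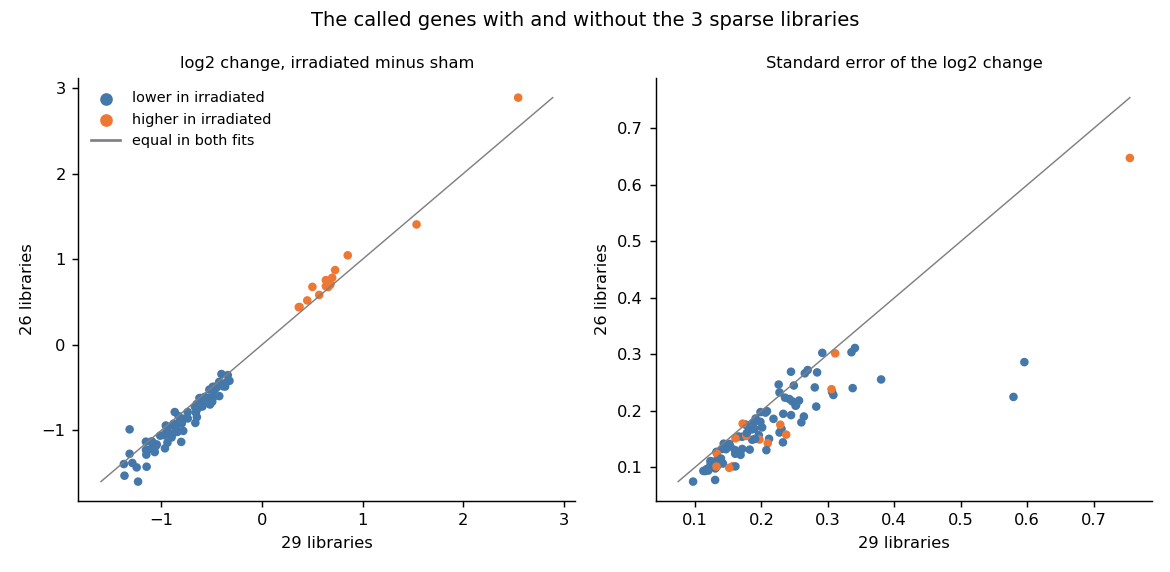
The 92 called genes in the fit with 29 libraries (x axis) and with 26 (y axis). The left panel shows the log2 change, irradiated minus sham, and the right panel its SE, with the line of equality in grey. In the right panel 84 of 92 points lie under the line.

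Put back one at a time, the 3 libraries had unequal effects. With sham replicate 1 alone put back, 7 genes were lower and 0 higher, all 7 among the 92. With irradiated replicate 2 alone put back, 50 were lower and 9 higher, and with irradiated replicate 14 alone, 78 and 12. Sham replicate 1 lay below the kept sham range in 56 of the 78 decreased genes (71.8%) and above it in 10 of the 14 increased ones. Over the 11519 genes whose mean reached 50 it lay below the kept sham range in 34.7% and above it in 26.1%. It was listed at 0 in none of the 92.

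For Cx3cr1 the value of sham replicate 1 was 442, against a kept sham minimum of 692, and for Psap 4467 against 13070. It was below the lowest kept irradiated value for Psap (5253), Nrp1 (124 against 155), Dusp6 (592 against 732) and Nfil3 (124 against 134). For Cx3cr1, Mpeg1, Csf1r, Prkx and Tnfrsf1b it was inside the kept irradiated range. For Tut4 it was 5870, against a kept sham maximum of 2568. Irradiated replicates 2 and 14 were also above the kept irradiated maximum for Tut4, at 5205 and 5057, so the 3 left-out libraries held the highest values of all 29. Irradiated replicate 2 was above the kept irradiated range in 20 of the 78 decreased genes and below it in 5. Over the same 11519 genes it was above that range in 1632 (14.2%) and below it in 2306. Irradiated replicate 14 was above the range in 1 of the 78 (1.28%) and below it in 20 (25.6%). Of the 11519 genes, 18.1% lay above the range and 19.9% below it. Irradiated replicate 14 was below the kept irradiated median in 75.6% of the 78, against 52.7% of the 11519 genes. It listed 2 of the 78 at 0: Rhou, a small GTPase, and Cyp4f16, a cytochrome P450. The part of RNA quality in these differences was not tested. The 7S RNA share, which was low in all 3, varied among the kept libraries too, and as a covariate it gave 138 lower and 30 higher genes.

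The genes whose log2 change moved most between the fits with 29 and 26 libraries were not among the called genes. The 3 libraries were left out for zeros among expressed genes, so zeros behind such moves follow from that choice and are a description. Tuba1c, an alpha tubulin, had a change of 0.98 (SE 0.754) with 29 libraries and -0.21 (SE 0.236) with 26, and its value was 0 in sham replicate 1 and between 1040 and 3470 in the kept sham libraries. Galnt2, an enzyme that starts O-linked glycans, had a change of -0.96 (SE 0.968) with 29 and 0.07 (SE 0.290) with 26, and was listed at 0 in both left-out irradiated libraries. Zbed4, a zinc finger protein, and Ube2g2, a ubiquitin-conjugating enzyme, were at 0 in sham replicate 1 alone of the 3.

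Of the called genes, 9 passed the threshold whichever of the 26 libraries was left out: Cx3cr1, Psap, Nrp1, Mpeg1, Dusp6, Csf1r, Prkx, Tnfrsf1b and Nfil3. Such fits do not test the choice of the 26. With all 29 libraries only Cx3cr1 and Mpeg1 of these 9 passed. The others had adjusted p-values by limma from 0.108 for Psap to 0.222 for Nfil3. With shared replicate numbers as a block, none of the 9 passed. No called gene changed direction. The count was less stable. It was 9 without sham replicate 6, 12 without sham replicate 7, 13 without sham replicate 4, 25 without sham replicate 5, 36 without sham replicate 2, 36 without sham replicate 8 and 43 without sham replicate 9. Among the irradiated libraries it was 31 without replicate 9, 38 without replicate 7, 38 without replicate 12, 41 without replicate 18, 57 without replicate 13 and 59 without replicate 1. It rose to 267 without sham replicate 10 and to 165 without irradiated replicate 17.

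**Figure D5:**
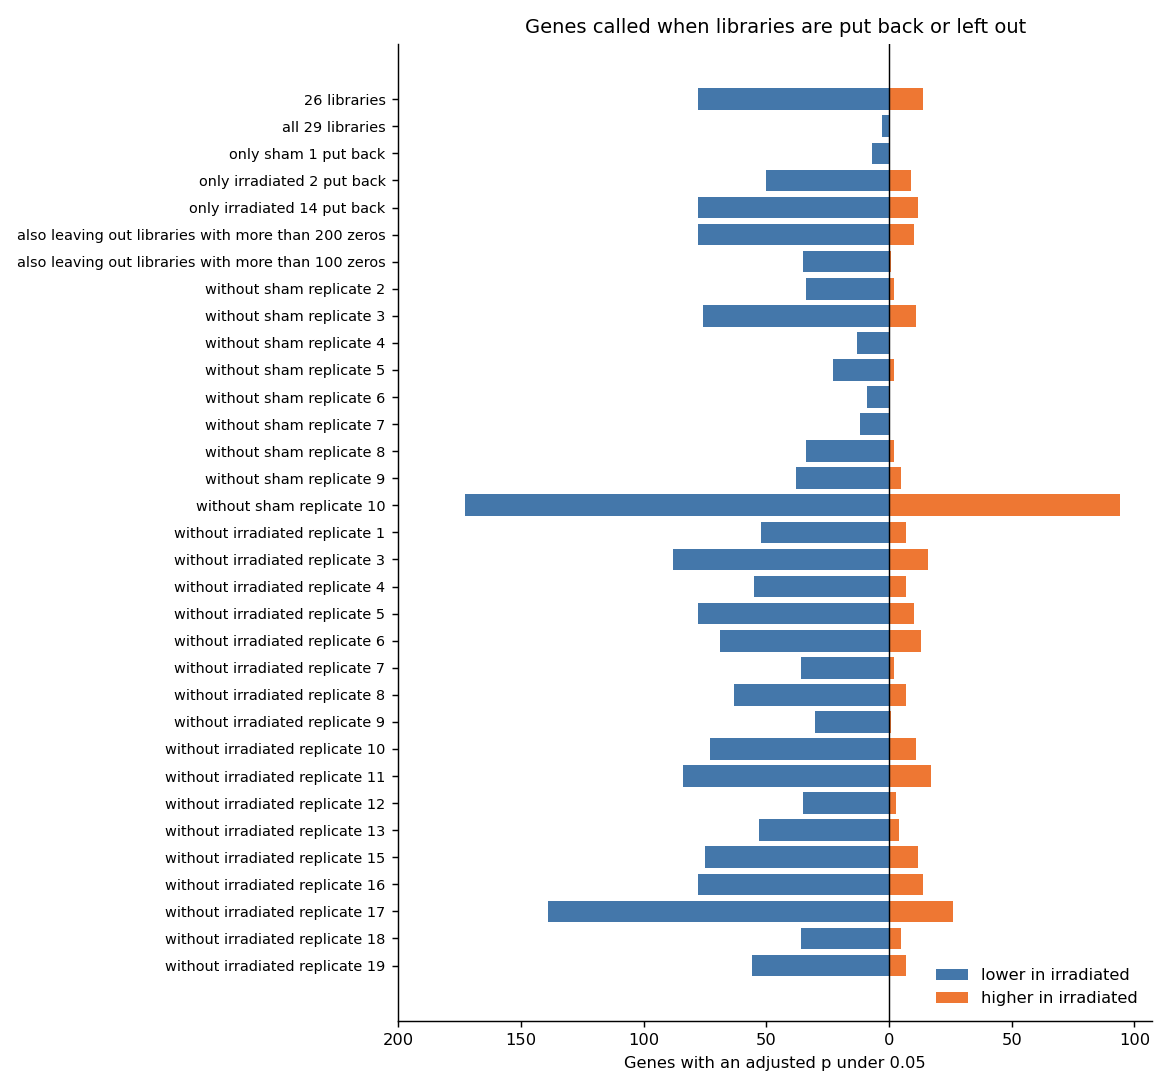
Number of genes with an adjusted p under 0.05, lower (left of 0) and higher (right of 0) in irradiated libraries, in the fit of 26 libraries, with left-out libraries put back, with further libraries left out by their zeros, and without each single library. With all 29 libraries 3 genes are lower, with 26 there are 78 lower and 14 higher, and without sham replicate 10 there are 173 and 94.

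By outcome, 115 genes passed in the 10 Live against the 9 sham libraries (0.473% of genes tested), 99 lower and 16 higher. In the 7 Die against the same 9 sham libraries limma called 0, with 2044 genes at an unadjusted p under 0.05. Both comparisons share the sham libraries, and the test of the difference itself, Die against Live, also called 0, with 2059 at an unadjusted p under 0.05. So no gene was shown to differ between the outcomes. For Cx3cr1 the log2 change was -1.66 (SE 0.216) for Live and -1.35 (SE 0.237) for Die, and the Die minus Live difference was 0.31 (SE 0.232, adjusted p 0.724). For Psap the changes were -1.21 for Live and -1.10 for Die, for Nrp1 -1.34 and -1.03, and for Mpeg1 -1.35 and -0.96.

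Cybb had a change of -1.20 (SE 0.170) for Live and -0.65 (SE 0.186) for Die, a difference of 0.55 (SE 0.182, adjusted p 0.496). The 9 sham libraries had a mean Cybb signal of 6810 ± 1774 (SD, n = 9). The Live mean was 2951 ± 808 (SD, n = 10), below the Die mean of 4309 ± 1180 (SD, n = 7). Of the genes higher in Live against sham, Carmil1 rose by 1.67 (SE 0.321, adjusted p 0.0227). Tbc1d14, a regulator of autophagy, rose by 0.62 (SE 0.126, adjusted p 0.0310), and Hmmr, a hyaluronan receptor that also acts at the spindle, by 1.13 (SE 0.252, adjusted p 0.0435). Oit3, a secreted protein, rose by 1.29 (SE 0.290, adjusted p 0.0435). The 7S RNA genes took between 11.6 and 40.1% of the values in the Live and between 5.78 and 32.1% in the Die libraries, and their part in these counts was not tested. The Die group lost 2 of its 9 libraries and the Live group none, and with all 29 libraries the Live count was 10.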

How the data were processed

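RNA of mouse whole blood was sequenced, and the values used are the authors' deposited normalised signal per gene symbol for 50384 symbols in 29 libraries. Per the submitters' processing notes, the build was GRCm38 and the tools included kallisto 0.44.0, bcl2fastq 2.19, DESeq2 and sleuth. The role of each tool is not given in the sources used here, nor is the normalisation. The median ratio of each library to the gene-wise geometric mean was 1.02 in all 29, and between 1.99 and 16.4% of values above 0 came out as whole multiples of a common step (tolerance 0.01), so read counts were not recovered and depth is unknown. Count tests were therefore not used.

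The 24310 genes whose mean over 29 libraries reached 1 were tested on log2(value + 0.5) with limma 3.58.1 in R 4.3.3 (trend, Benjamini-Hochberg adjustment over all of them, threshold 0.05). Fold changes on this scale understate the change of low genes. One fit had 2 groups and another 3 (sham, Live, Die). Symbols matched GENCODE on GRCm38 for 49678. Simulated data had 200 of 24310 genes changed, all 200 among those with a mean of at least 50. The fit of irradiated against sham over 26 libraries recovered 60% of them at a log2 change of 1 and 91.5% at 2. Of its calls 9.09 and 5.67% were wrong. The simulated noise was independent between genes, so these percentages leave out variation that libraries share. Recovery of lower genes was not simulated.

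The libraries and gene lists were chosen with earlier results of these data known. The genes named are up to 15 called genes of smallest p per direction (mean of at least 5, no clone names), those called with 29 libraries, the 5 per direction that moved most between the fits, up to 4 members of smallest p of each list described, up to 5 per direction for each outcome contrast, and Cdkn1a, Mdm2, S100a8, Cd79a, Cd3e, Pf4 and Hbb-bs. Some genes that meet this rule are not reported here. Irf2bp2, Rhou, Cyp4f16 and Ctss were named after their values were seen. Alternatives covered the libraries left out, pseudocounts, filters, scaling, covariates, weights and each library left out in turn.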

Additional observations from a re-analysis of the deposited data

Results flagged for a closer look

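Within the sham, Live and Die groups of the genes named, 21 of 246 groups of values held 1 library far from the rest by Dixon's test, which chance alone gives in about 1 in 20 groups. The following are the normalised values of those libraries.

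Sham replicate 10 was apart in 4 genes. It was the highest sham library for Spopl at 1964 and for Tuba1c at 3470, and the lowest for Csf2ra at 749.5 and Tlr2 at 349.1. Other sham libraries stood apart in 1 gene each, replicate 3 as the lowest for Prkx at 826.3 and replicate 9 as the lowest for Mdm2 at 826.5.

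In the Die group, irradiated replicate 3 was the highest for Cybb at 6856 and Rpl23a-ps3 at 12.96, and the lowest for Tbc1d14 at 1185 and Cdkn1a at 0. Irradiated replicate 4 was the lowest for Clec4a1 at 255.5 and irradiated replicate 12 the lowest for Flt3 at 43.91.

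In the Live group, irradiated replicate 5 was the lowest for Mmp9 at 545.4 and Gm47103 at 0. Irradiated replicate 8 was the lowest for Gm48128 and Batf3, at 0 in both, and irradiated replicate 7 the lowest for Gm45090, at 0. Irradiated replicate 19 was the lowest for Clec4a1 at 110.3 and irradiated replicate 9 the lowest for Adgre4 at 130.5. The highest were irradiated replicate 17 for F13a1 at 21320 and irradiated replicate 6 for Ngp at 428.8.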

How the results depend on the processing

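The 78 lower and 14 higher genes became 3 and 0 with all 29 libraries, 7 and 0 with sham replicate 1 put back, and 50 and 9 with irradiated replicate 2 put back. Leaving out libraries with more than 100 zeros gave 35 and 1, testing only genes with a mean of at least 50 gave 161 and 45, array weights gave 299 and 92, and the 7S share as a covariate gave 138 and 30. At an adjusted p under 0.01 there were 9 and 0, and under 0.1 there were 180 and 43. There were 53 and 5 when any gene above 0 was tested, 60 and 9 under upper-quartile scaling, and 56 and 6 when the outcomes were weighted equally. Without single libraries the lower count ran from 9 to 173 and the higher from 0 to 94. The Live count of 115 became 10 with all 29 libraries. The causes were not tested.

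Replicate numbers were shared by 8 sham and irradiated mice, whose deviations correlated between -0.235 and 0.0214. Whether the numbers mark pairs, litters or days cannot be told from these correlations or from the labels. With the replicate block, 0 lower and 0 higher genes were called, and 72 and 22 in the same animals unblocked. No called gene changed sign in any setting. The median of the immature granulocyte list was -0.51, with 6 members below 0 and 6 above. It was 0.84 when only genes with a mean of at least 50 were tested, a filter that can change which members enter. With no read counts, depth sets a limit of unknown size.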
